A study of Mus musculus with 12 samples.

Results

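The end state of Xist induction was compared between cells carrying 2 kinds of Xist deletion. The XistDelm6A/T1_11C line, called 11C here, was set against the XistDelA clones C1, 2C2 and C11, all after 24 h of doxycycline (Dox). These libraries were taken by their labels: 2 induced replicates of 11C and 3 induced XistDelA libraries, 1 per clone, which makes 5 of the 12 samples of the series. The question was how far apart the X chromosomes ended up, gene by gene, when one Xist deletion left silencing largely working and the other left it nearly absent.

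Xist is a long non-coding RNA that coats the X chromosome it is made from and silences its genes. Its A-repeat, a run of short tandem units near the 5′ end, is needed for silencing and binds proteins such as SPEN and RBM15. RBM15 brings in the enzyme complex that writes N6-methyladenosine (m6A), and one cluster of m6A lies just downstream of the A-repeat. All cells were iXist-ChrX mouse embryonic stem cells (mESCs), female 129S x Castaneus hybrids in which a TetOn promoter replaced the endogenous Xist promoter on the 129S X chromosome. Adding Dox thus switches on Xist on the 129S homologue (Xi) and leaves the Castaneus homologue (Xa) active. In 11C the 5′ m6A region was deleted from this Xist, and in the XistDelA clones the A-repeat was. 11C is 1 cell line with 2 replicates, so a feature of the line and an effect of its Xist deletion cannot be told apart. For C11 the data name the deletion differently from C1 and 2C2. The lines were grown on mitomycin-inactivated feeder cells, which were removed before harvest according to the methods.

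Both deletions lie in exon 1 of Xist. In GENCODE M21 the gene is ENSMUSG00000086503.4, and Xist-201 (ENSMUST00000127786.3) is a minus-strand transcript of 17946 nucleotides in 7 exons on GRCm38. The counted gene span was chrX:103460372-103483233. A window of 300 nucleotides from the region downstream of the A-repeat is shown, because the m6A cluster deleted in 11C lies there. It covers nucleotides 759 to 1058 of the transcript (chrX:103482197-103482496) and is read 5′ to 3′ in the direction of the RNA, as DNA letters. Capitals mark GGAC, one common form of the m6A consensus.
downstream window: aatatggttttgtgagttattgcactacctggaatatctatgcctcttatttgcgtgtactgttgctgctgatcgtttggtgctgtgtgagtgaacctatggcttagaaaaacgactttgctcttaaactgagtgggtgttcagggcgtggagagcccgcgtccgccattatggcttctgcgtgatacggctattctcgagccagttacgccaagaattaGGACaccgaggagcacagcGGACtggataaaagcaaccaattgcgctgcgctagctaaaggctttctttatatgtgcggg
GGAC occurred 44 times in the transcript. Both strands counted, 87.7% of 32851 RefSeq promoter sequences of 300 bases (GRCm38) held it. A match describes the letters only. Counts were made per gene, so the deleted stretches cannot be checked in them, and the end points of the deletions were not analysed here.

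The induced 11C replicates held 36007145 and 21079263 counts on genes, and the induced C1, 2C2 and C11 libraries 27489603, 27300014 and 27469878. Between 45.5% and 47.1% of these counts could be assigned to a parental genome. One genome held at least 99.6% of the allelic Xist counts in each induced library and was taken as 129S. Without molecular identifiers in the reads, the confidence intervals describe counting error and nothing else. The p-values rest on the spread between these samples, which for 11C is that of replicates of 1 line, described as biological in the methods, except in the paired fit of allele shares as told where it is used.

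The mESC label was checked against marker genes. Of 15 pluripotency markers, 14 had counts, with the naive-state regulator Esrrb at 843 and 458 RPM (reads scaled to the counts on genes of each library) in 11C and 433, 517 and 523 RPM in C1, 2C2 and C11. Zfp42 (Rex1) was the most abundant of them on average, and their summed level was 3088 and 2334 RPM against 2504, 2874 and 2773 RPM. Sox2 was listed at 0 in each library. It lies inside Sox2ot on the same strand, and read pairs overlapping both genes may have gone uncounted, which was not tested. Klf4 was the 1 marker past the threshold, at 35.8 and 30.7 RPM in 11C and 66.3, 84.1 and 71.6 RPM in the clones (edgeR log2 fold -1.21, adjusted p = 0.0128). It was also lower in uninduced 11C (edgeR adjusted p = 0.00269). There edgeR called 4 of the markers lower and 0 higher, beside 11.9% and 11.2% of all genes. The others were Nanog (edgeR adjusted p = 0.0377), Pou5f1 (edgeR adjusted p = 0.0494) and Tfcp2l1 (edgeR adjusted p = 0.0488).

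Of 12 feeder fibroblast markers, Fn1 was the most abundant, at 774 and 808 RPM in 11C and 557 to 677 RPM in the clones, and stem cells express it as well. Without it the list was near 0: Lum had no counts, and Col1a1, the main fibrillar collagen, had 0.778 and 0.285 RPM in 11C and 1.57 to 2.33 RPM in the clones. With Fn1 the list summed to 784 and 813 RPM in 11C and to 573, 692 and 598 RPM in the clones. The median log2 fold difference of its 10 tested members was -0.961, opposite in direction to this sum. Col1a1 passed the threshold as lower in 11C (edgeR adjusted p = 0.0484) and no feeder marker as higher. Of 6 primitive endoderm markers, the transcription factors Gata4 and Gata6 were higher in 11C. Gata4, the most abundant, had 17.4 and 10.3 RPM against 3.78, 4.73 and 4.44 RPM (edgeR adjusted p = 0.0157), and Gata6 had 9.55 and 8.21 RPM against 2.22, 1.94 and 2.51 RPM (edgeR adjusted p = 0.0116). None of these 6 was at 0 throughout, and their sum was 37.3 and 26.0 RPM against 12.5, 12.5 and 11.9 RPM. Both genes were also higher without Dox. Of 8 primed or lineage markers, 1 passed the threshold after Dox. It was the neural factor Pax6, at 2.22 and 1.42 RPM in 11C and 3.42 to 7.50 RPM in the clones (edgeR adjusted p = 0.0452). Otx2 went the other way, at 51.2 and 30.8 RPM against 28.0, 19.8 and 14.4 RPM, but did not pass (edgeR adjusted p = 0.0869). Without Dox edgeR called 1 of the list lower and 2 higher, Otx2 (edgeR adjusted p = 0.0254) and T (edgeR adjusted p = 0.0182). After Dox the list had a median log2 fold difference of 0.279. Led by Dnmt3b, it summed to 295 and 145 RPM against 209, 176 and 184 RPM. Over all genes 3.60% were called lower and 3.92% higher after Dox, and 11.9% and 11.2% without Dox. The part of these markers in the results below was not tested.

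Xist itself was induced in all 5 libraries but to different levels. It stood at 3139.6 RPM (95% Wilson interval 3121 to 3158) and 4576 RPM (4547 to 4604) in 11C. In C1 it was 1543 RPM (1528 to 1558), in 2C2 1267 RPM (1254 to 1281) and in C11 1600.0 RPM (1585 to 1615). Every 11C library lay above every clone, with means of 3858 ± 1015 RPM (SD, n = 2) and 1470.1 ± 178 RPM (SD, n = 3), a 2.62-fold difference. The two-sided exact permutation p was taken as 2 times the smaller one-sided p. So defined, it cannot fall below 0.2 in a design of 3 against 2, and 0.2 is the value found here. In edgeR's quasi-likelihood test over all genes the log2 fold difference was 1.37 (SE 0.31, Benjamini-Hochberg adjusted p = 0.0386). This call ended when any one clone was left out, with edgeR adjusted p = 0.118 without C1, 0.209 without 2C2 and 0.145 without C11.

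Without Dox the order was the other way round. Uninduced 11C had 100.1 and 85.6 RPM of Xist, and the uninduced clones 124, 126 and 158 RPM, so that 11C lay below each clone (log2 fold -0.67, edgeR adjusted p = 0.0156). The 1 induced WT library, given as background, had 5514 RPM, above both 11C replicates. In bulk samples a smaller number of cells with Xist and less Xist RNA per cell cannot be told apart, and the same holds for the silencing values that follow.

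Silencing was read from the Xi share, the percentage Xi/(Xi+Xa) of the allelic counts of a gene, in which equal expression of both X chromosomes gives a value near the middle of the scale. It was taken over 317 informative X-linked genes, those that averaged 10 or more allelic counts after Dox and had a mean share of 10% to 90% in the uninduced libraries of both lines, Xist left out. After Dox the median Xi share was 32.4% in 11C replicate 1 and 38.0% in replicate 2. The clones C1, 2C2 and C11 had 50.1%, 51.2% and 48.9%. The 2 groups did not overlap: the 11C X chromosome had lost a large part of its expression, while in the clones Xi and Xa were still expressed about equally. The means were 35.2% ± 3.96 (SD, n = 2) and 50.0% ± 1.15 (SD, n = 3), a difference of -14.9 percentage points (exact two-sided permutation p = 0.2, the smallest possible).

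Without Dox the same genes had medians of 50.0% in both 11C replicates and of 51.9%, 52.2% and 52.2% in C1, 2C2 and C11, a difference of -2.09 points. Subtracting the uninduced library of the same clone or replicate first, as a paired comparison (replicate block), left -11.9 points. The induced WT library had a median of 30%, below both 11C replicates. Summing the allelic counts over the 317 genes gave 33.7% (95% Wilson interval 33.5% to 33.8%) and 38.6% (38.4% to 38.8%) for 11C, and 50.0% (49.9% to 50.2%), 50.3% (50.2% to 50.5%) and 48.0% (47.8% to 48.1%) for C1, 2C2 and C11. The gap between the 11C replicates was wider than these intervals. Replicate 1 had the lower Xist level and the lower Xi share of the 2, and among 202 genes with at least 100 allelic counts the share was lower in replicate 1 for 166 (82.2%). The order of genes was much alike in both replicates (Pearson r = 0.874 across these genes, which are not independent replicates).

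**Figure D1:**
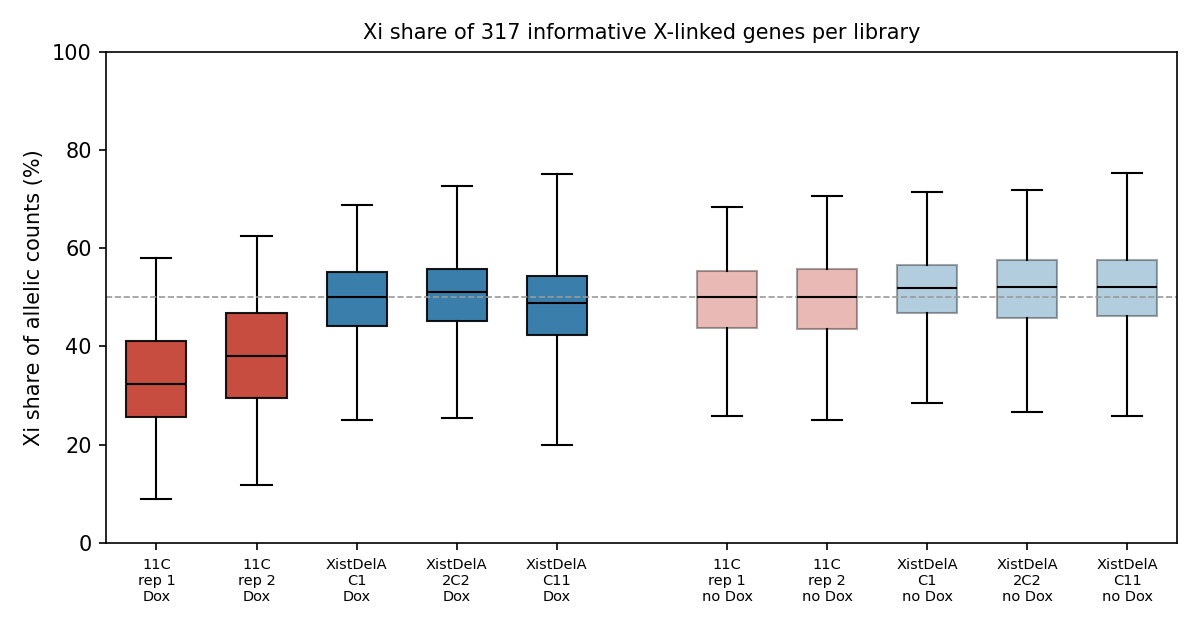
Xi share in percent of the 317 informative X-linked genes in each library of 11C (red) and XistDelA (blue), with Dox on the left and without Dox on the right. Boxes span the quartiles with the median as a line, whiskers reach the 5th and 95th percentiles, and the induced 11C medians of 32.4% and 38.0% lie below the other 8.

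The shift reached nearly the whole set of genes. The difference in Xi share between the group means was below 0 for 296 of 317 genes (93.4%), with a median of -13.5 points and quartiles of -18.8 and -8.25 points. For 69 genes it was below -20 points, for 36 it was within 5 points of 0, and for 9 it was above 5 points. Over 13030 autosomal genes treated the same way the median was 0.0686 points, with quartiles of -3.02 and 3.79 points. A share under 25% was found for 74 (23.3%) and 52 (16.4%) of the 317 genes in the 11C replicates, against 16, 14 and 24 in C1, 2C2 and C11.

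Both 11C replicates lay below all 3 clones for 241 X-linked genes (76.0%), where 16.4% of all 13347 genes did, and above all 3 clones for 6 (1.89%), where 13.0% of all genes did. Among the 202 genes with at least 100 allelic counts, 181 (89.6%) were below and 1 was above. In edgeR's quasi-likelihood test of the allele counts, 63 X-linked genes (19.9%) had a lower Xi share in 11C at an adjusted p under 0.05, where 0.554% of all genes tested did. No X-linked gene had a higher share by edgeR, with 3 at an unadjusted p under 0.05, where 0.0524% of all genes were called higher. Without Dox edgeR called 0 of the 317 genes in either direction, with 33 lower and 6 higher at an unadjusted p under 0.05, where 0.00749% of all genes were called lower. Both 11C replicates then lay below all 3 clones for 81 of the 317 genes (25.6%) and above them for 24 (7.57%). Over informative autosomal genes these shares were 16.1% and 14.1% without Dox.

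The number of calls changed with the method and with the libraries used. With DESeq2 it was 102, and limma on the log2 allele ratio called 0, with 203 lower at an unadjusted p under 0.05. It was 117 without C1, 2 without 2C2, 25 without C11, 12 without 11C replicate 2 and 0 without 11C replicate 1, where 155 had an unadjusted p under 0.05 in edgeR. In the paired fit, which tests whether the share fell more with Dox in 11C (replicate block), 127 X-linked genes (40.1%) were called and none in the other direction by edgeR, where 1.09% of all genes were called. At an unadjusted p under 0.05 that fit gave 194 lower and 0 higher. Its p-values follow the read counts and not the spread between replicates: edgeR drew the residual variance almost wholly to the trend (prior degrees of freedom 3738, against 3.45 in the unpaired fit), for Tsix from 30.7 to 0.846. A paired limma test of the change in the log2 allele ratio, added after these values were seen, called 0 X-linked genes in either direction, with 173 lower and 3 higher at an unadjusted p under 0.05. No paired call of a single gene's share is therefore given.

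The 10 X-linked genes with the largest fall were chosen among those past the threshold with both 11C replicates below all clones. Their differences ranged from -35.7 to -26.3 points. Nhsl2, a relative of the Nance-Horan syndrome protein, had Xi shares of 11.6% and 12.7% in 11C and of 51.0%, 51.2% and 41.4% in C1, 2C2 and C11. Gpc4, which encodes the heparan sulfate proteoglycan glypican 4, had 12.9% and 15.5% against 45.5%, 46.6% and 42.3%. In both genes the 11C replicates lay close together and far below each clone, and the Xi to Xa ratio in 11C was 15.1% and 20.4% of that in the clones. The fall of Gpc4 had the smallest adjusted p among the 10 (log2 ratio -2.30, SE 0.13, edgeR adjusted p = 0.00397), and that of Nhsl2 was -2.74 (SE 0.22, edgeR adjusted p = 0.0119).

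Firre, a long non-coding RNA with a role in nuclear organisation, started from a high share. It had 27.0% and 34.8% in 11C and 65.8%, 67.1% and 57.6% in the clones (edgeR adjusted p = 0.0248). Tbl1x encodes a subunit of the NCoR corepressor complex, the partner through which SPEN is linked to histone deacetylation, and had 23.8% and 24.1% against 52.6%, 52.2% and 46.6% (edgeR adjusted p = 0.0059). Dmd, the very long dystrophin gene, had 14.6% and 19.5% against 44.7%, 46.7% and 38.8% (edgeR adjusted p = 0.0197). Pls3, which encodes an actin bundling protein, had 11.6% and 11.8% against 46.0%, 43.1% and 31.6% (edgeR adjusted p = 0.031). In each of these 4 genes C11 had the lowest share of the clones. Pls3 was the 1 gene of the 10 that the unpaired test also called lower in total counts (log2 fold -1.01, edgeR adjusted p = 0.0442).

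Kis2, Mospd1 and Fam122b also belonged to the 10. Kis2, a non-coding transcript, had the lowest shares, 5.16% and 4.55% against 42.4%, 45% and 33.1%, but it rests on 22 to 155 allelic counts a library and is uncertain, with a 95% Wilson interval of 0.807% to 21.8% in 11C replicate 2. Mospd1 had 27.0% and 23.9% against 55.1%, 58.9% and 52.9%, and Fam122b 25.5% and 31.6% against 57.3%, 59.0% and 51.4%. The widest Wilson interval of a library was 2.65 points for Dmd, 2.91 points for Tbl1x, 3.04 points for Firre and 17.2 points for Mospd1.

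**Figure D2:**
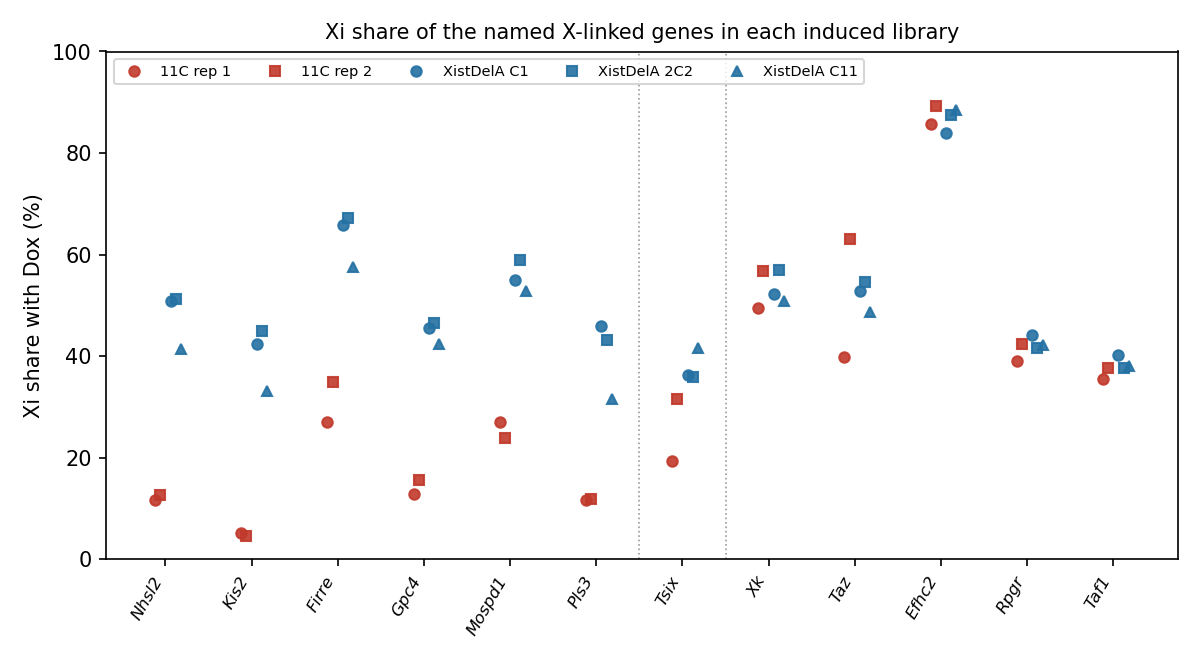
Xi share in percent after Dox in each of the 5 induced libraries, for the 6 genes with the largest fall past the threshold, for Tsix and for the 5 genes with the smallest difference, parted by dotted lines. Red symbols are 11C replicates 1 and 2 and blue symbols the clones C1, 2C2 and C11. The 6 genes on the left were chosen for no overlap of red and blue, and the 5 on the right overlap.

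At the other end, 5 genes with at least 100 allelic counts differed least. Xk, which encodes a membrane protein of the Kell blood group complex, had 49.5% and 56.7% in 11C and 52.3%, 57.0% and 50.8% in the clones. Taf1, the largest subunit of the general factor TFIID, had 35.6% and 37.7% against 40.2%, 37.6% and 38.1%, on a mean of 2038 allelic counts. Efhc2, which encodes an EF-hand protein, kept high shares of 85.8% and 89.3% against 84.0%, 87.6% and 88.5%. Rpgr, a gene of the ciliary base, had 39.1% and 42.4% against 44.2%, 41.6% and 42.3%. In all 4 the groups overlapped, and the differences were -0.252 points for Xk, -1.99 for Taf1, 0.888 for Efhc2 and -1.94 for Rpgr. Taz, the cardiolipin remodelling enzyme tafazzin, also had a small mean difference of -0.574 points, but its 11C replicates were far apart, at 39.9% and 63.1%.

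The 6 genes with both 11C replicates above all clones were Pramel3, Slitrk4, Morf4l2, Apool, Srpx and 3110007F17Rik, named after their values were seen. None passed the threshold in edgeR. All but Morf4l2 had a mean of at most 60.6 allelic counts and are uncertain. Morf4l2, a chromatin protein gene with close copies that may share its reads, had 43.9% and 28.2% against 21.3%, 24.0% and 24.1%, and without Dox it had 45.2% and 55.4% in 11C against 25.6%, 20.7% and 21.4%.

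Informative genes covered the X chromosome from its proximal end to Xist and only thinly beyond. In windows of 20 Mb counted from the start of the chromosome, the median difference was -9.68 points in the first window, with 60 genes, and -13.2 in the next, with 39. It was -17.6 points from 40 to 60 Mb, -12.5 from 60 to 80 Mb and -18.1 from 80 to 100 Mb, and in the window that holds Xist, from 100 to 120 Mb, it was -16.4 points over 28 genes. The share of genes with both 11C replicates below all clones ran from 63.3% in the first window to 88.6% from 80 to 100 Mb among the windows up to 120 Mb. The window from 120 to 140 Mb held 7 genes, too few for a trend, with 42.9% of them below all clones and a median of -3.94 points. It lies distal of Xist, where the median 129S share was at most 0.88% in each induced library. The shares of these 7 genes are therefore uncertain. Without Dox all 7 windows lay between -2.59 and -1.16 points.

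**Figure D3:**
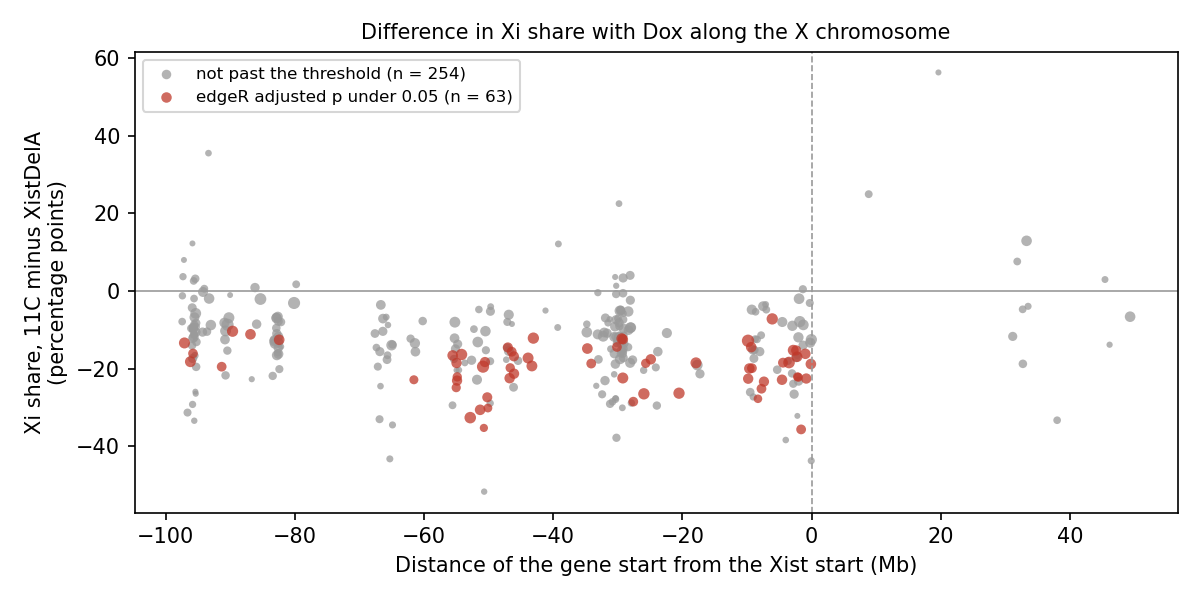
Difference in Xi share after Dox, 11C minus XistDelA in percentage points, for each of the 317 informative genes against the distance of its start from the Xist start in Mb. The 63 red genes passed edgeR's adjusted threshold, point size grows with the allelic counts, and 296 genes lie below the line at 0.

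Expression level and gene length were compared in tertiles. By level per length (RPM per kilobase of gene span), the least expressed 106 genes had a median difference of -17.2 points, the middle 105 genes -13.1 points and the most expressed 106 genes -11.9 points. Both 11C replicates lay below all clones for 66.0%, 74.3% and 87.7% of these genes, and 12.3%, 23.8% and 23.6% passed edgeR's threshold, so the tertile with the largest median difference had the smallest share of genes without overlap. In the mean over replicates, 11C had a median Xi share of 30.5% in the lowest tertile and of 37.3% in the highest. Long genes, of 41.2 kb or more, had a median of -15.6 points, against -11.7 points for those of up to 10.96 kb, and 40.6% of the long genes but 4.72% of the short ones passed edgeR's threshold. The calls tracked depth. By allelic counts, 46.2% of the highest tertile and 0% of the lowest were called (0 of 106 by edgeR), although the median differences, -13.1 and -12.4 points, were close to each other.

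The genes were also grouped by function. Of the listed escape genes of the mouse X, which are transcribed from the inactive X chromosome in many tissues, 5 were informative, with a median difference of -6.88 points, against -13.5 over all informative X-linked genes. The histone demethylase gene Kdm6a had 52.2% and 53.0% in 11C and 55.5%, 54.3% and 54.3% in the clones, and the RNA helicase gene Ddx3x had 39.9% and 46.7% against 49.8%, 49.7% and 51.1%. All 5 lay below the clones in both replicates, as did 76.0% of all informative X-linked genes, and 1 passed the threshold, as did 19.9% of all. It was the actin regulator Shroom4, at 38.7% and 42.2% against 53.7%, 55.6% and 52.3% (edgeR adjusted p = 0.0277).

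Around Xist itself 3 genes were informative. Tsix, the antisense transcript that overlaps Xist, had 19.3% and 31.6% in 11C and 36.4%, 35.9% and 41.6% in the clones. 11C was lower without overlap, but the difference did not pass the threshold (edgeR adjusted p = 0.365). Uninduced values were 51.7% and 48.8% in 11C and 51.0%, 50.3% and 51.0% in the clones, so that the clones too were lower with Dox at this gene. Chic1, a neighbour of Tsix, had 32.5% and 39.5% against 52.9%, 56.8% and 54.8% (edgeR adjusted p = 0.0349). Tsx averaged 29.2 allelic counts and is uncertain. In total counts edgeR called 3 of 11 locus genes lower in 11C, beside 18.5% of all X-linked genes, Ftx and Chic1 among them. Xist was the 1 called higher. Ftx, a non-coding activator of Xist, had 107 and 87.3 RPM against 231, 204 and 134 RPM (edgeR adjusted p = 0.0442).

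Of 21 informative chromatin and transcription regulators, 9 were called lower by edgeR and 18 lay below the clones in both replicates. Over all informative X-linked genes these shares were 19.9% and 76.0%. The list had a median of -14.5 points, against -13.5 over all. Calls tracked depth: 62 of the 202 informative genes with at least 100 allelic counts were called. The part of depth in the 9 calls was not tested. Among these 9 genes were Phf6, Bcor, Hdac8, Zfx, Med12, Zmym3, Tbl1x and Elf4. Med12, a subunit of the Mediator kinase module, had 29.3% and 27.6% against 49.4%, 51.5% and 50.8% (edgeR adjusted p = 0.0328). Bcor, a corepressor of variant Polycomb complexes, had 29.6% and 29.4% against 45.7%, 51.0% and 50.3% (edgeR adjusted p = 0.0248). In total counts edgeR called 3 of 30 members lower, beside 18.5% of all X-linked genes, namely Phf6, Smarca1 and Zfx, and none higher.

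Of 15 informative pluripotency and signalling genes, 3 were called lower and 11 lay below the clones in both replicates, again beside 19.9% and 76.0% of all informative X-linked genes, with a median of -14.5 points. Besides Gpc4 these were Gpc3, its glypican relative, with 26.5% and 33.3% against 50.5%, 50.5% and 47.2% (edgeR adjusted p = 0.0248), and the LIM protein gene Fhl1, with 26.2% and 31.9% against 50.2%, 55.4% and 49.0% (edgeR adjusted p = 0.0267). Nr0b1 (Dax1), a nuclear receptor of the naive state, had low shares of 9.28% and 16.0% against 38.1%, 33.0% and 30.9%, and missed the threshold (edgeR adjusted p = 0.0623). Dusp9, a phosphatase that restrains ERK signalling, had 34.8% and 31.6% against 42.3%, 51.2% and 41.1% on a mean of 63.4 allelic counts. In totals edgeR called 1 of 20 lower, the kinase gene Pak3, beside 18.5% of all X-linked genes. The median log2 fold difference of the 20 was -0.434.

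Metabolic genes were compared in the same way. Of 15 informative members 1 was called, beside 19.9% of all informative X-linked genes, the pyruvate dehydrogenase kinase Pdk3, with 27.3% and 34.1% against 53.2%, 51.5% and 47.3% (edgeR adjusted p = 0.0402), and 12 lay below the clones, beside 76.0% of all, with a median of -8.25 points. Hprt, the purine salvage enzyme, had 41.2% and 46.7% against 54.1%, 55.8% and 53.0% and did not pass (edgeR adjusted p = 0.142). In totals edgeR called 10 of 30 members lower, beside 18.5% of all X-linked genes, among them Hprt, Pdha1, Cox7b, Prps1 and Slc25a5. Without Dox it called 11 of 30 lower, beside 20.8% of all. Pdha1, the E1 subunit of pyruvate dehydrogenase, had 50.9 and 40.4 RPM against 83.1, 109.6 and 98.0 RPM (edgeR adjusted p = 0.0149), and was lower in uninduced 11C too (edgeR adjusted p = 0.00294).

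Among 15 informative RNA binding and ribosomal genes, 3 were called lower, Rbmx, Thoc2 and Rpl10, and 13 lay below the clones, beside 19.9% and 76.0% of all informative X-linked genes, with a median of -10.4 points. Rbmx, a splicing regulator, had 29.2% and 33.9% against 48.7%, 48.0% and 48.4% (edgeR adjusted p = 0.0248), and Thoc2, a subunit of the mRNA export complex THO, 28.1% and 33.8% against 54.6%, 54.6% and 52.3% (edgeR adjusted p = 0.0376). In totals edgeR called 6 of 21 members lower, and 12 without Dox, beside 18.5% and 20.8% of all X-linked genes. Rpl10 and Rbmx have processed copies that may share their reads. As an autosomal counterpart, 27 genes for SPEN, RBM15, the m6A enzymes and readers and Polycomb proteins had a median difference of -0.587 points. Both 11C replicates lay below all clones for 9 and above them for 4, beside 14.9% and 13.2% of informative autosomal genes. None of the 27 was called by edgeR in share or in total after Dox. In uninduced 11C 5 of the 27 were lower in total, among them Wtap, Cbll1 and Suz12, beside 11.9% of all genes. Mettl3, the m6A methyltransferase, stood at 28.8 and 23.0 RPM against 22.0, 25.9 and 26.2 RPM, and Spen at 119.9 and 103 RPM against 89.9, 104 and 95.4 RPM.

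The 2 alleles were then read apart. The Xi allele of the 317 genes, relative to autosomal genes, stood at a median log2 level of -1.39 and -0.69 in the 11C replicates against the mean of the clones, and at 0.01, 0.07 and -0.08 in C1, 2C2 and C11. The Xa allele stood at -0.31 and 0.02 in 11C and at 0.06, 0.00 and -0.06 in the clones. So the Xi allele was lower in both replicates, and the Xa allele only in replicate 1. The Xi to Xa ratio in 11C was 48.7% and 61.5% of that in the clones, whose own values were 100.4%, 103% and 95.4%.

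Summed over both alleles, the 470 X-linked genes whose mean reached 50 counts stood at a median log2 level of -0.80 and -0.39 in the 11C replicates and of 0.02, 0.04 and -0.06 in C1, 2C2 and C11, relative to autosomal genes. The groups did not overlap, with a difference of -0.59 (exact two-sided permutation p = 0.2). Part of this was present before induction, since uninduced 11C stood at -0.22 and -0.14. After subtraction of the uninduced library of the same clone or replicate (replicate block) the difference was -0.39. Totals also reach the genes distal of Xist, 176 of the 470, which carry almost no allelic information: their median 129S share was at most 0.88% in each induced library. The totals of the 176 genes stood at -0.88 and -0.46 in 11C and at 0.05, 0.03 and -0.08 in the clones. This was a difference of -0.67 (exact two-sided permutation p = 0.2). In uninduced 11C they stood at -0.30 and -0.22. The replicate block left -0.40.

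**Figure D4:**
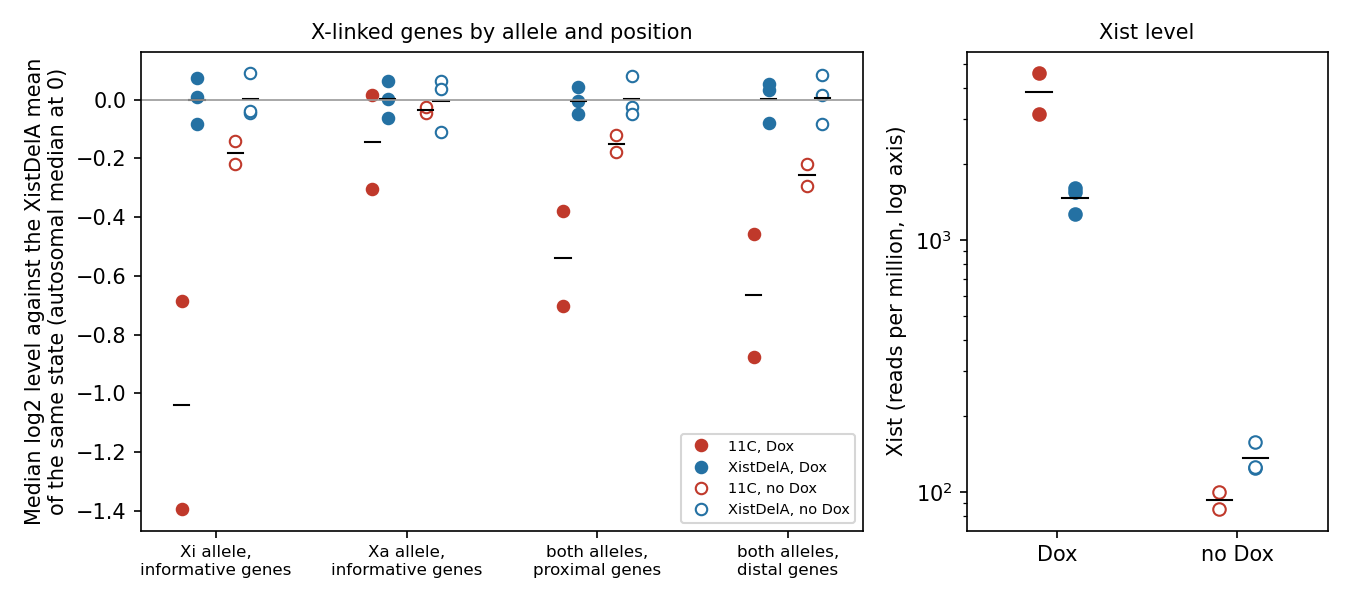
Left, median log2 level of X-linked genes against the XistDelA mean of the same state, autosomal median at 0, for each allele of the informative genes and for both alleles of genes proximal and distal of Xist. Right, Xist in RPM on a log axis. Each circle is 1 library, black bars are group means, red is 11C and blue XistDelA, and the induced 11C libraries reach -1.39 and -0.69 for the Xi allele.

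In edgeR's test of total counts, Xist left out, 110 of 593 X-linked genes (18.5%) were lower in 11C, where 3.60% of all 15384 genes tested were. Besides Xist, Arhgap6 and 1700080O16Rik, 2 genes or 0.337%, were higher, where 3.92% of all genes were, and both were also higher without Dox. Of the 110, 84 were lower in uninduced 11C as well. Without Dox 124 of 596 X-linked genes (20.8%) were lower and 43 (7.21%) higher, where 11.9% of all 15100 genes were lower and 11.2% higher. Distal of Xist 52 of 228 genes were lower and 1 higher, and proximal 58 of 365 were lower and 1 higher. The median log2 fold difference was -0.52 over X-linked and 0.06 over autosomal genes. The 110 became 54 without C1, 25 without 2C2, 20 without C11 and 231 without 11C replicate 2, and 190 with DESeq2. In the paired fit (replicate block) 59 of 618 X-linked genes (9.55%) had fallen more with Dox in 11C, beside 0.198% of autosomal genes. Pls3, Smarca1 and Lpar4 were among these 59. So were Nhsl2, Firre, Fam122b, Tbl1x, Gpc3 and Tsix, which edgeR did not call in the unpaired test of totals. The totals of Ftx, Chic1, Hprt, Pdha1, Cox7b, Prps1, Slc25a5, Phf6, Zfx, Rpl10 and Pak3, called lower in the unpaired test, were not among them, nor were Arhgap6 and 1700080O16Rik called higher. The interaction without block called 0 by edgeR, with 78 X-linked genes at an unadjusted p under 0.05.

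Of the 63 genes called for a lower Xi share, edgeR also called 18 (28.6%) lower in total, beside 18.5% of all X-linked genes. The 5 called X-linked genes with the largest lower total were Rhox2e, Il1rapl1, Lpar4, G530011O06Rik and Rab39b, and all 5 were lower before induction. Lpar4, a lysophosphatidic acid receptor gene distal of Xist, had 5.53 and 2.47 RPM in 11C and 28.0, 31.7 and 26.0 RPM in the clones (log2 fold -2.91, SE 0.30, edgeR adjusted p = 0.00565), and 16.0 and 6.99 RPM in uninduced 11C against 35.6 to 43.3 RPM in the uninduced clones. Rab39b, a small GTPase gene, had 2.28 and 1.23 RPM against 10.5, 9.85 and 11.9 RPM (edgeR adjusted p = 0.00669). Il1rapl1, a synaptic receptor gene, had 1.22 and 1.99 RPM against 7.13, 10.5 and 18.7 RPM (edgeR adjusted p = 0.0205). Rhox2e, a homeobox gene with near-identical copies, and G530011O06Rik had at most 3.28 RPM and are uncertain. With the replicate block Lpar4 kept its call (edgeR adjusted p = 0.00621), and the other 4 lost theirs, with edgeR adjusted p = 0.107 for Il1rapl1 and 0.116 for Rab39b.

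One X-linked gene set a single clone apart. Mid1, a ubiquitin ligase gene at the pseudoautosomal boundary, had 496 and 562 RPM in 11C and 581 and 622 RPM in C1 and 2C2, but 10386 RPM in C11. It made the summed RPM of the 12 escape genes 13325 in C11, against 2234 and 2765 in 11C and 3463 and 3612 in C1 and 2C2. In totals Ftx was the 1 of these 12 genes called lower, where 18.5% of all X-linked genes were, and no member was called higher by edgeR.

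Autosomes showed how far the lines differed apart from the X chromosome. Of 14789 autosomal genes 444 were lower and 600 higher in induced 11C, and 920 of these 1044 (88.1%) were called in the same direction without Dox. The median difference in 129S share was between -0.627 and 0.162 points on every autosome but chromosome 11, where it was 11.4 points. There the median share was 68.1% and 68.4% in 11C and 69.0% in C1, but 50.0% in 2C2 and 51.9% in C11. Chromosome 11 also held 85 higher and 9 lower genes of 1218, with a median log2 fold difference of 0.35, and chromosome 13 held 66 higher and 22 lower of 609, with a median of only 0.07. Of these 66 genes, 41 were histone genes. On the X chromosome the corresponding medians were -13.5 points and -0.52.

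**Figure D5:**
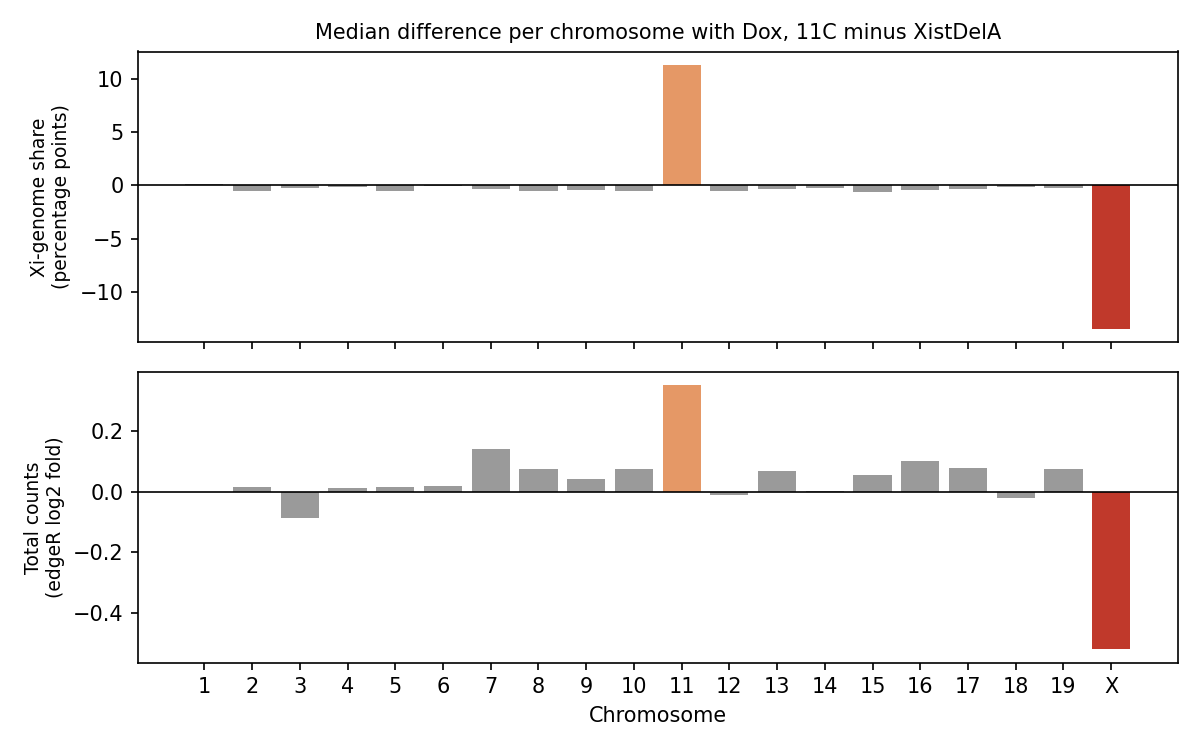
Median difference after Dox, 11C minus XistDelA, for each chromosome: 129S share in percentage points (top) and edgeR log2 fold difference of total counts (bottom). Bars start at 0, with the X chromosome in red at -13.5 points and -0.52 and chromosome 11 in orange at 11.4 points and 0.35.

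Among autosomal genes that were called and had no overlap of the groups, the 5 with the largest difference in each direction were taken. They were mostly weakly expressed and were mostly different before induction. Fosb, an AP-1 transcription factor gene, had 0.139 and 0.332 RPM in 11C and 19.8, 11.9 and 8.63 RPM in the clones (log2 fold -5.99, edgeR adjusted p = 0.00565), and 0.139 and 0.318 RPM against 4.75 to 9.79 RPM without Dox. The other 4 of the lower genes, 4933404K08Rik, Cyp2c65, Spink3 and 1700095A21Rik, had at most 86 counts in any induced library and are uncertain. Higher in 11C were Ier5l, an immediate early response gene, at 2.53 and 1.76 RPM against at most 0.218 RPM, and the histone gene Hist1h2af, at 5.22 and 7.64 RPM against 0.109, 0.513 and 0.473 RPM (edgeR adjusted p = 0.0106). Scand1, Gm853 and Rprl3 had at most 53 counts in any induced library and are uncertain. None of these 10 genes was called with the replicate block, where Fosb had an edgeR adjusted p of 0.676.

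Structural RNAs and histone genes also differed between the groups, with and without Dox. The labels give no batch or date, so a difference between sets of libraries and one between cell lines cannot be told apart. Rmrp, the RNA of the RNase MRP complex, had 7098 and 7638 RPM in 11C against 498, 913 and 718 RPM (log2 fold 3.34, edgeR adjusted p = 0.00565), and 4056 and 6202 RPM against 666 to 918 RPM without Dox. Rpph1, the RNA of RNase P, and Terc, the telomerase RNA, were higher as well, so that 3 of 8 listed structural RNAs were called higher, where 3.92% of all genes were. The list, led by Malat1, with no member at 0 in all libraries, summed to 27213 and 21670 RPM in 11C and to 10275, 10324 and 10373 RPM in the clones. Of 57 replication-dependent and related histone genes, a list chosen after the data were seen, 47 were higher by edgeR, beside 3.92% of all genes, with a median log2 fold difference of 2.37, and 44 were higher without Dox, beside 11.2% of all genes. The part of these RNAs in the X-linked results was not tested.

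By 129S share 11 autosomal genes were lower and 7 higher in 11C by edgeR, of 13030. Cmss1, a nucleolar protein gene on chromosome 16, had 10.7% and 8.33% in 11C against 51.4%, 53.8% and 54.5%, and 11.8% and 5.59% against 45.8% to 54.3% without Dox. Hist1h2bb on chromosome 13 went the other way, with 82.8% and 86.6% against 43.1%, 45.8% and 44.3%, and 80.5% and 84.4% in uninduced 11C. Histone genes have near-identical copies, so this share is uncertain.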

How the data were processed

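Chromatin-associated RNA (ChrRNA-seq) was deposited as raw read pair counts per gene, made by the authors in featureCounts 1.5.2 with strand and intron reads of the mm10 genes. One count covers all pairs, and a count per parental genome covers those that could be assigned. The submitters' processing notes name STAR 2.4.2a and Bowtie2 2.3.2. The members were taken by label and the gene lists by function, both with earlier results of these data known.

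Xi/(Xi+Xa) was computed for genes of the X chromosome that averaged 10 or more allelic counts in the 5 induced libraries and had a mean share of 0.1 to 0.9 over the 5 uninduced libraries of the same lines. Allele counts were fitted with edgeR 4.0.16 (glmQLFit and glmQLFTest in R 4.3.3) with a term for each library and the interaction of allele and line, over 317 X-linked and 13030 autosomal genes together. Totals were fitted with TMM factors and filterByExpr with a minimum count of 10. P-values were adjusted by Benjamini-Hochberg over all genes of a fit, with a threshold of 0.05. Median log2 levels used RPM with a pseudocount of 0.5 and a mean of at least 50 counts. Other values came from Python 3.11.15 with scipy 1.17.1, and 95% intervals are Wilson intervals.

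Alternatives were DESeq2 1.42.0, limma 3.58.1, RLE factors, other count minimums and share windows, no filter, all 12 libraries in one fit, an interaction with Dox with and without replicate block, a paired limma test of the allele ratio added later, and leaving out each library. Induced and uninduced libraries were paired by clone, or in 11C by replicate number. The deviations of paired libraries from their group means correlated at 0.769 in 11C and at 0.804, 0.575 and 0.696 in C1, 2C2 and C11. Induced libraries of a group differed from each other beyond sampling noise, with chi-square per degree of freedom from 26.9 to 96.2, so none was counted as a duplicate. The unpaired edgeR fits were also run on simulated data, and no value or call given here rests on those runs.

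Genes were chosen by rule, and not each one is described. For the Xi share they were the 10 called genes with the largest fall and no overlap of the groups, and the 5 with at least 100 allelic counts and the smallest difference. For totals they were the 5 called X-linked genes with the largest lower total. To these came the 5 called autosomal genes with the largest total difference in each direction and no overlap of the groups. Xist and Tsix were added. Of 22556 gene names, 94.6% were found in GENCODE M21. The WT libraries were given as background only.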

Additional observations from a re-analysis of the deposited data

Results flagged for a closer look

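The rise of Xist with Dox differed between the lines. In the paired edgeR fit the log2 rise was larger in 11C by 1.96 (SE 0.21, Benjamini-Hochberg adjusted p = 0.00166). In the same kind of fit the total count fell more with Dox in 11C for 59 X-linked genes. For the Xi share it gave 127 X-linked genes, but there its p-values follow the read counts and not the spread between replicates, and a paired limma test called 0, with 173 at an unadjusted p under 0.05. The interaction of line and Dox is what drew attention to these 3 results.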

How the results depend on the processing

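The 11C to XistDelA difference kept its sign for the median Xi share, both median totals and Xist under each alternative run. The median Xi share difference, -14.9 points, stayed from -16.4 to -13.3 points with other count minimums, share windows or summed counts, and was -11.9 points with the replicate block. Leaving out 1 library gave -17.7 to -12.1 points, the lowest without 11C replicate 2 and the highest without replicate 1. The median total difference, -0.59, was -0.39 with the replicate block and -0.80 to -0.39 with a library left out. Distal of Xist it was -0.67, with -0.40 and -0.88 to -0.46. Counts of called genes moved far more. For a lower Xi share, 63 genes became 102 with DESeq2, 0 with limma, 30 in the interaction with Dox without block, 127 in that with replicate block, 0 in a paired limma test of the change in log2 allele ratio chosen after the data were seen (173 at an unadjusted p under 0.05), and 0 to 117 with a library left out. Genes lower in total, 554, became 1056 with DESeq2, 1364 with all 12 libraries in one fit, 0 in the interaction without block (157 at an unadjusted p under 0.05 in edgeR), 89 in that with replicate block and 39 to 1972 with a library left out. Genes higher in total, 603, became 989, 1220, 0 (76 unadjusted), 28 and 56 to 1264 in the same order. X-linked genes lower in total, 110, became 190, 197, 0 (78 unadjusted), 59 and 20 to 231. The 127 rest on a fit that took almost no spread between replicates into account. The interaction asks for a change with Dox and not for an end state. The log2 fold difference of Xist ranged from 0.88 to 1.69 with a library left out and lost its call without C1 (1.38), without 2C2 (1.25) and without C11 (1.44). DESeq2 kept all 10 calls of named genes in share and 14 of 14 in total, and of the leave-out fits 20 of 50 kept a share call and 45 of 74 a total call, with no change of sign. Where 1 replicate of 11C remained, it was assumed to vary like the clones. The cause of these moves was not tested. Of the 15 genes named for their totals, 14 lost the call with the replicate block, all but Lpar4.

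The 11C side is 1 line with 2 replicates that differ from each other, the clones carry deletions with 2 designations, and many autosomal genes differed before induction. The permutation tests cannot go below 0.2. Shares of genes with few allelic counts are imprecise, and most genes distal of Xist have totals only.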
